A study of Rattus norvegicus with 6 samples.

Results

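The ERK feedback inhibitors are genes that ERK signalling switches on and whose products then dampen the same pathway. The members were taken by gene name from the table of raw counts, and all 10 of the 25689 listed genes that the rule names were found: Dusp1, Dusp4, Dusp5, Dusp6, Spry1, Spry2, Spry4, Spred1, Spred2 and Spred3. The rule uses gene names and no measured value. The RNA came from neurons isolated from the L1-L2 dorsal root ganglia (DRGs), the sensory ganglia that receive fibres from the perirenal fat, of wild type spontaneously hypertensive rats (SHRs), a strain that develops high blood pressure without treatment. Of these, 3 samples were taken 4 weeks after perirenal adipose tissue ablation (PRATA), in which the fat around both kidneys was removed, and 3 after a sham operation. For all animals an age of 6 to 8 weeks stands in the labels, whereas the methods of the study give 12 weeks at purchase. The neurons were parted from glial cells only by a difference in the speed of adhesion to the dish over 5 h, so other cells of the ganglion can remain, and nothing says whether a sample is 1 animal or a pool. P-values therefore measure the spread between these samples.

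Growth factors that bind receptor tyrosine kinases activate RAS, which passes the signal through RAF and MEK to ERK. ERK then induces the genes of its own inhibitors. The DUSP proteins remove phosphate from MAP kinases, the Sprouty proteins block the signal between receptor and RAF, and the SPRED proteins hold neurofibromin, an inactivator of RAS, at the membrane. In sensory neurons this pathway carries the response to neurotrophins such as nerve growth factor, and it is also activated by injury and by strong electrical activity. Because these genes follow the pathway, their mRNA is often read as a report of ERK activity. The comparison asks whether they differed between PRATA and sham. Enzymes had first loosened the cells from the tissue, and the cells then spent 5 h in a dish before lysis. The levels are therefore those after this handling and need not be those in the animal. The part of the handling in these levels was not tested.

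Total counts ran from 5892967 in sham replicate 2 to 15226952 in sham replicate 1, so that 3 counts, taken as the floor of detection, stood for 0.197 to 0.509 CPM (counts relative to the size of the library). This floor covers counting error only. The contrast of PRATA with sham was fitted by quasi-likelihood in edgeR, with TMM scaling, to the 14919 genes that passed the filter on low counts, all 10 members among them. By complete linkage on log2 CPM, PRATA replicate 3 and sham replicate 1 formed a cluster apart from the other 4 samples. All 15 sensory neuron markers had a count above 0 in every sample. Their summed level was 14028 to 21686 CPM after PRATA and 9818 to 15020.1 CPM after the sham operation. Markers of satellite glia and Schwann cells (12 of 12 in the table) summed to 4034 to 7460.5 CPM after PRATA and 5066 to 9142 CPM after sham. In the same order, those of fibroblasts (7 of 8) summed to 511 to 2576 and 1406 to 2592 CPM. Macrophage markers (10 of 10) summed to 72.7 to 218 and 61.1 to 145 CPM. Endothelial markers (7 of 8) summed to 69.1 to 147 and 28.6 to 170 CPM. By sample, the fibroblast sum was 511, 1057 and 2576 CPM in PRATA replicates 1, 2 and 3. In sham replicates 1, 2 and 3 it was 2592, 1406 and 1570 CPM. It was thus highest in PRATA replicate 3 and sham replicate 1, which clustered apart. The part of fibroblast content in that cluster was not tested. No marker in the table was at 0 in any sample. Fewer cells of a type and less RNA per cell cannot be told apart in such samples.

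Dusp1, Spry2 and Dusp5 serve to show the sequences in front of these genes, because Spry2 and Dusp1 had the smallest p-values of the family and Dusp5 carries the densest match. The 250 bases upstream of the RefSeq gene start were read from the rat build GRCr8, where 9 of the 10 members had an entry (all except Dusp4), and are written 5′ to 3′ on the strand of the gene. Capitals mark a match to a binding motif on either strand.
Dusp1, chr10:17184603-17184852, + strand: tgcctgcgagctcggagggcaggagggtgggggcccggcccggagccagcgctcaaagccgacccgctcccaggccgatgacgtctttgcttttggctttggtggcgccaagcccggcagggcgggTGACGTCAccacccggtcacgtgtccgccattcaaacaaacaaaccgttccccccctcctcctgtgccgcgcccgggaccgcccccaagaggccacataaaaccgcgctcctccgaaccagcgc
Spry2, chr15:89111927-89112176, - strand: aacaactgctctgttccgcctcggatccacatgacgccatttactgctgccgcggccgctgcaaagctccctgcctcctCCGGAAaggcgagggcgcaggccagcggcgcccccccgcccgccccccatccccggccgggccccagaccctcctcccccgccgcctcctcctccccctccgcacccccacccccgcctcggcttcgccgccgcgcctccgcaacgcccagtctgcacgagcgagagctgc
Dusp5, chr1:262543524-262543773, + strand: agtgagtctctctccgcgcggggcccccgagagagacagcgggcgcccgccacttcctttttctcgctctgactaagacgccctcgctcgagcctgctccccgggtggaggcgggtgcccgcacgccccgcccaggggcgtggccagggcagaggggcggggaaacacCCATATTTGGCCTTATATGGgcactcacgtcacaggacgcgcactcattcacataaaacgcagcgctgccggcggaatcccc
The capitals in Dusp1 are TGACGTCA, the cAMP response element (CRE), 124 to 117 bases before the start, a motif that 1.59% of all 33469 such windows hold. Spry2 carries CCGGAA, the core that ETS factors bind, 171 to 166 bases before the start of the first of its 2 RefSeq windows, and 12.6% of windows hold it. In Dusp5 the capitals are a pair of adjoining CArG boxes, the site of serum response factor, 82 to 63 bases before the start, with a CArG box in 1.5% of all windows. Spry4 also held CCGGAA, while the AP-1 motif TGANTCA, found in 6.34% of windows, was in none of the member windows. The matches in these windows did not overlap each other. A match describes the letters only and does not show that a factor binds there.

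None of the 10 genes separated PRATA from sham. In 0 of 10 members did the groups not overlap, where the groups did not overlap for 22.8% of all genes tested (11.6% higher and 11.2% lower after PRATA). At an unadjusted p under 0.05, 1 member (Spry2, lower after PRATA) was called, where 18.3% of all genes were, 8.19% higher and 10.1% lower after PRATA. With library size alone in place of TMM, 66.7% rather than 55.3% of the genes called at this p were lower after PRATA. An absolute log2 fold change over 1 together with this p was met by 0 members and by 4.4% of all genes (1.17% higher and 3.23% lower). No gene in the table, member or not, had an adjusted p under 0.05 in edgeR, a background of 0%, while DESeq2 called 728 genes (4.88%) and voom with quality weights 1173 (7.86%), with 0 members in either. The median log2 fold change, PRATA over sham, was -0.048 over the 10 members and 0.025 over all genes tested, with 5 members above 0 and 5 below. The members' values by sample show how wide the sham group was for several of them.

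**Figure D1:**
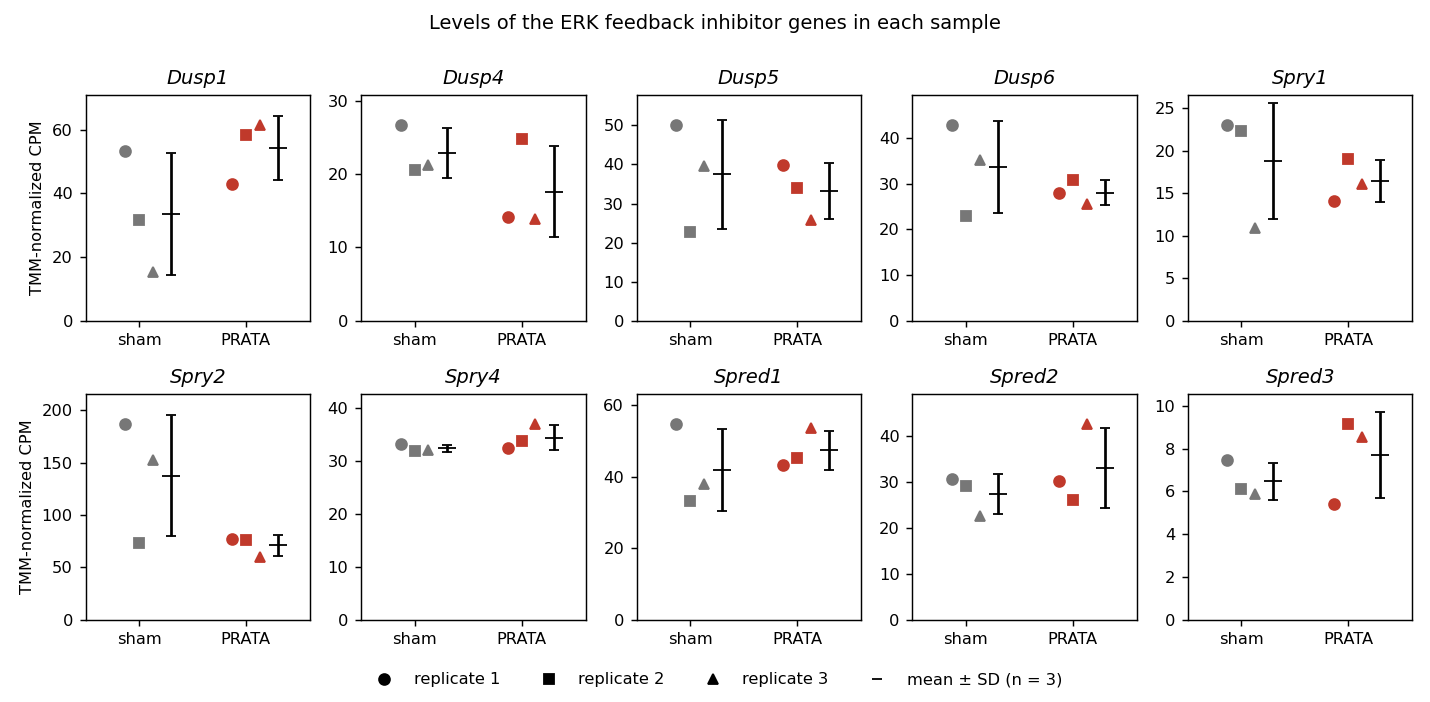
TMM-normalized CPM (y axis, from 0) of each of the 10 genes in the sham samples (grey) and PRATA samples (red), with the symbol giving the replicate and the black bar the mean ± SD (n = 3). In every panel the 2 groups overlap, Spry2 is high in sham replicates 1 and 3 alone, and Spry4 is nearly level in all 6 samples.

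Among the Sprouty genes, whose products act close to the receptor, Spry2 (ENSRNOG00000010058) differed most. It was at 77.3, 76.2 and 59.7 CPM in PRATA replicates 1, 2 and 3. In sham replicates 1, 2 and 3 it was at 187, 73.8 and 152 CPM. Sham replicates 1 and 3 thus had the highest levels, and sham replicate 2 lay within the PRATA range. The log2 fold change was -0.96 (standard error 0.32, 95% interval -1.70 to -0.22), which is 1.94-fold higher in sham, and the edgeR adjusted p was 0.201. The call depended on single samples. Without sham replicate 2, the shallowest library, the log2 fold change was -1.25 (edgeR adjusted p = 0.0291), and over all 16 alternatives the adjusted p lay between 0.0291 and 0.551. The unadjusted p was no longer under 0.05 without PRATA replicate 3, sham replicate 1 or sham replicate 3, where the log2 fold changes were -0.85, -0.69 and -0.88. In the 4 samples without PRATA replicate 3 and sham replicate 1, the log2 fold change was -0.58 (edgeR adjusted p = 0.534). Markers of satellite glia and Schwann cells summed to 8184, 5066 and 9142 CPM in sham replicates 1, 2 and 3. Spry2 was high, low and high in these. The same markers summed to 4665, 7460.5 and 4034 CPM in PRATA replicates 1, 2 and 3, where Spry2 was at 77.3, 76.2 and 59.7 CPM. PRATA replicates 1 and 2 were thus close in Spry2 and apart in these markers. Sensory neuron markers summed to 9818, 15020.1 and 12214 CPM in sham replicates 1, 2 and 3. In PRATA replicates 1, 2 and 3 they summed to 20834, 14028 and 21686 CPM. This neuron sum was lowest in sham replicates 1 and 3, where Spry2 was highest. It was highest in PRATA replicate 3, where Spry2 was lowest. PRATA replicates 1 and 2 were apart in it as well. The part of either set of markers in the Spry2 result was not tested.
Spry4 (ENSRNOG00000013851), a close relative, was the steadiest member. Its levels were 32.4, 33.9 and 37.1 CPM after PRATA and 33.2, 32.0 and 32.1 CPM after sham. The highest sample was 1.16 times the lowest, against a median of 2.02 times over all genes tested. Its log2 fold change of 0.087 had a 95% interval of -0.27 to 0.44, so a change of more than about this size in either direction lay outside the interval (edgeR adjusted p = 0.800). Spry1 (ENSRNOG00000025371) was at 14.1, 19.0 and 16.1 CPM after PRATA, and its sham values of 23.1, 22.3 and 10.9 CPM lay on both sides of these. Its log2 fold change was -0.19 (95% interval -0.88 to 0.50).

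The DUSP genes encode phosphatases. DUSP1 is a nuclear phosphatase that also acts on the stress kinases JNK and p38, and its gene is an immediate early gene. Dusp1 (ENSRNOG00000003977) was at 42.9, 58.4 and 61.6 CPM in PRATA replicates 1, 2 and 3 and at 53.3, 31.7 and 15.4 CPM in sham replicates 1, 2 and 3. Sham replicate 1 fell among the PRATA values, and sham replicate 3 was far below all others. The log2 fold change of 0.69 (standard error 0.40, 95% interval -0.22 to 1.61) was the highest of the family and did not pass (edgeR adjusted p = 0.382). Sham replicates 1 and 3 set its size, since it was 1.20 without sham replicate 1 and 0.35 without sham replicate 3. The unadjusted p was under 0.05 in 3 of the 16 alternatives (without sham replicate 1, in the 4 samples named above and with voom), and the adjusted p lay between 0.107 and 0.702. Macrophage markers summed to 72.7, 218 and 183 CPM in PRATA replicates 1, 2 and 3 and to 145, 72.9 and 61.1 CPM in sham replicates 1, 2 and 3. Endothelial markers summed to 69.1, 120 and 147 CPM in these PRATA samples and to 69.2, 170 and 28.6 CPM in these sham samples. Both sums were lowest in sham replicate 3, which had the least Dusp1, but the endothelial sum was highest in sham replicate 2. Macrophage sums were close in PRATA replicate 1 and sham replicate 2, where Dusp1 was at 42.9 and 31.7 CPM. The part of either cell type in the Dusp1 values was not tested.
DUSP5 and DUSP6 act on ERK itself, in the nucleus and in the cytoplasm. Dusp6 (ENSRNOG00000023896) was at 28.0, 30.8 and 25.5 CPM after PRATA and at 43.0, 22.9 and 35.2 CPM after sham. Dusp5 (ENSRNOG00000014061) was at 39.9, 34.0 and 25.8 CPM after PRATA and at 50.2, 22.6 and 39.7 CPM after sham. In both genes sham replicate 1 was the highest and sham replicate 2 the lowest of the 6 samples, so the PRATA samples lay inside the sham range. The log2 fold change was -0.27 for Dusp6 (95% interval -0.82 to 0.29, edgeR adjusted p = 0.578) and -0.18 for Dusp5 (95% interval -0.88 to 0.51, edgeR adjusted p = 0.782). Without sham replicate 2, that of Dusp6 was -0.48 (unadjusted p under 0.05, edgeR adjusted p = 0.142). It was -0.077 without sham replicate 1 and -0.0019 in the 4 samples. Dusp4 (ENSRNOG00000011921), a nuclear phosphatase related to DUSP1, was at 14.2, 24.7 and 13.9 CPM after PRATA and at 26.7, 20.6 and 21.2 CPM after sham. PRATA replicate 2 alone lay within the sham values, and without it the log2 fold change went from -0.37 (edgeR adjusted p = 0.473) to -0.70 (unadjusted p under 0.05, edgeR adjusted p = 0.292).

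**Figure D2:**
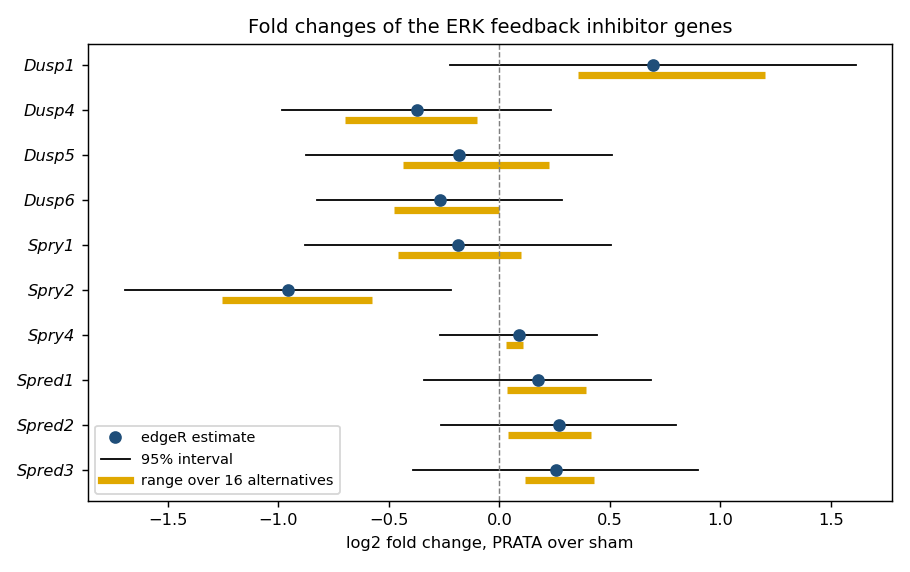
Log2 fold change of each gene, PRATA over sham (x axis), from edgeR (points, n = 3 per group) with its 95% interval (black lines) and the range over 16 alternative settings (yellow bars). The interval of Spry2, from -1.70 to -0.22, is the one that leaves out 0, and the yellow bars of Dusp5 and Spry1 cross 0.

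The SPRED genes had point estimates above 0. Spred1 (ENSRNOG00000005209) was at 43.4, 45.2 and 53.5 CPM after PRATA and at 54.8, 33.1 and 37.9 CPM after sham, with sham replicate 1 above every PRATA sample. Spred2 (ENSRNOG00000004888) reached 42.8 CPM in PRATA replicate 3, while its other 5 values lay between 22.6 and 30.7 CPM. Spred3 (ENSRNOG00000051915) was at 5.42, 9.16 and 8.54 CPM after PRATA and at 7.46, 6.09 and 5.86 CPM after sham. The log2 fold changes were 0.17 for Spred1, 0.27 for Spred2 and 0.26 for Spred3, and their 95% intervals reached from -0.39 to 0.90 at the widest. With a sample left out the log2 fold changes ran from 0.034 (without sham replicate 2) to 0.39 (without sham replicate 1) for Spred1, from 0.040 (without PRATA replicate 3) to 0.41 (without PRATA replicate 2) for Spred2 and from 0.12 (without PRATA replicate 2) to 0.43 (without PRATA replicate 1) for Spred3. Nf1, which encodes the neurofibromin that SPRED proteins recruit, differed by 0.043 on the log2 scale (edgeR adjusted p = 0.926).
Across the family, 6 of the 10 genes were highest in sham replicate 1 and 0 of 10 were lowest there, whereas 20.4% of all genes tested were highest and 23.1% lowest in that sample. Sham replicate 2 was the lowest sample for 4 members and sham replicate 3 for 3. The genes did not share 1 order of samples: Dusp1 and the SPRED genes were above their own means in PRATA replicate 3, where Spry2 and Dusp4 were at their lowest. The within-group SD of log2 CPM was from 0.073 for Spry4 to 0.66 for Dusp1, with a median of 0.32 over all genes tested. Outside the family, Ahr, Ncapg2, Boc, Lrp12 and Pip5k1a had the centred log2 CPM nearest to the mean of the 10 members over the 6 samples. Their root mean square difference from it was 0.040 to 0.060 log2 units, among 11288 candidates. The members themselves lay further from this mean, at 0.157 for Spred1 to 0.592 for Dusp1. Nearness to the mean is therefore not nearness to any 1 member.

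**Figure D3:**
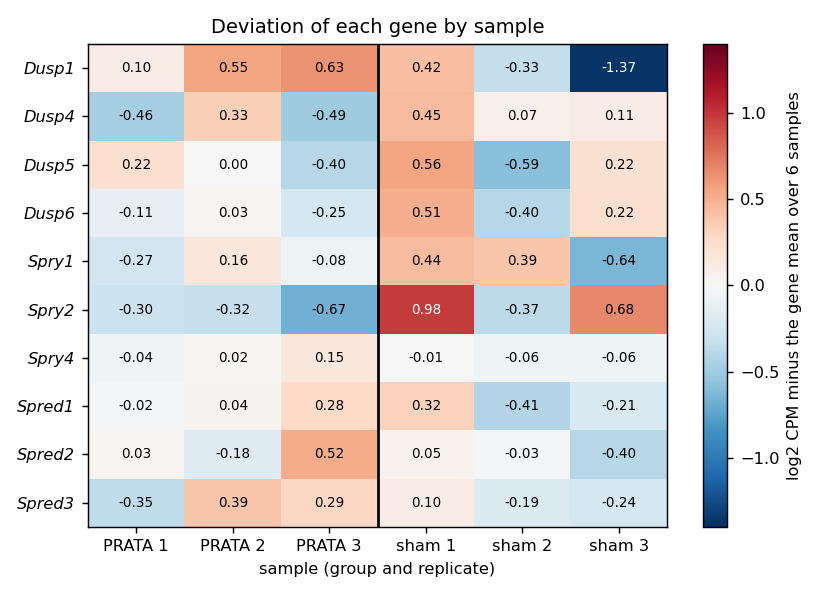
Log2 CPM of each gene (rows) in each sample (columns, PRATA left of the line, sham right) minus the gene's mean over the 6 samples, red for above and blue for below. Sham replicate 1 is the column with the most red, at up to 0.98 for Spry2, and the darkest blue cell is Dusp1 in sham replicate 3, at -1.37.

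The other genes of the pathway were counted from lists of known pathway genes by the same thresholds. These lists were chosen with earlier results of these data known, so their counts beside the background are a description only. For each list the background at an unadjusted edgeR p under 0.05 is the 18.3% of all genes called (8.19% higher and 10.1% lower after PRATA). In edgeR none of the list genes had an adjusted p under 0.05. At that level DESeq2 called 5 of 16 receptor genes and 4 of 19 ligand genes. It also called 2 of 6 other phosphatases and 2 of 20 other ERK-responsive genes, and 0 in the cascade and 0 among the other brakes. Voom called 5, 5, 2 and 3 in the first 4 of these lists and 0 in both of the others. Over all genes tested, DESeq2 called 4.88% and voom 7.86%. DESeq2 gave no adjusted p for 2 receptor genes, 5 ligand genes, 1 other phosphatase and 1 other ERK-responsive gene. These genes count in the list sizes above but could not be called by it. In the cascade from GRB2 to ERK, 10 of 19 genes tested had a log2 fold change above 0, the median was 0.0085, and 1 gene had an unadjusted p under 0.05. This was Ksr2, a scaffold that brings RAF and MEK together, at 20.6 ± 1.66 CPM after PRATA and 14.4 ± 2.17 CPM after sham (SD, n = 3), with 0.52 as its log2 difference (edgeR adjusted p = 0.227). Those of Sos2, a RAS activator, and Gab1, a docking protein, were -0.33 and -0.37 and did not pass.
Upstream, genes of both directions were found. Of 19 ligand genes tested (22 in the list), 2 were higher and 6 lower after PRATA at an unadjusted p under 0.05. The median was -0.25, and 5 of the lower genes also passed the log2 fold change of 1. Over all genes tested, 3.23% were lower by both of these thresholds. Ereg, named after its value was seen, was among the 5. Its PRATA values of 0, 0.558 and 0.237 CPM lay below or near the floor of 3 counts. Bdnf, a neurotrophin that acts on TrkB, was at 50.9, 38.3 and 47.3 CPM after PRATA and at 24.7, 24.7 and 22.5 CPM after sham, which was higher in 3 of 3 samples (log2 fold change 0.93, edgeR adjusted p = 0.156, DESeq2 adjusted p = 0.00323). Gdnf, which signals through RET, and Tgfa, an EGF receptor ligand, were lower, with log2 fold changes of -2.23 and -1.72 (edgeR adjusted p = 0.156 for both, DESeq2 adjusted p = 2.23e-05 for Gdnf and adjusted p = 1.28e-07 for Tgfa). Of 16 receptor genes, 3 were higher and 3 lower at an unadjusted p under 0.05, with a median of -0.33. Met, the receptor of hepatocyte growth factor, was at 48.3 ± 12.4 CPM after PRATA and 104 ± 31.5 CPM after sham (SD, n = 3), which gave -1.10 on the log2 scale (edgeR adjusted p = 0.167, DESeq2 adjusted p = 0.00994). Kit, the stem cell factor receptor, was higher, with a log2 fold change of 0.77 and adjusted p-values of 0.168 in edgeR and 0.0341 in DESeq2. All 15 sensory neuron markers had a log2 fold change above 0, with a median of 0.46, and the part of neuron content in these values was not tested.
Among phosphatases outside the family, 4 of 6 genes passed at the unadjusted threshold, 1 higher and 3 lower after PRATA. The median log2 fold change was -0.46, with 3 genes above 0 and 3 below. Dusp7, which acts on ERK, was at 18.6, 25.2 and 27.7 CPM in PRATA replicates 1, 2 and 3 and at 85.7, 38.2 and 68.1 CPM in sham replicates 1, 2 and 3. Dusp10, which acts on JNK and p38, was at 71.1, 82.5 and 79.9 CPM after PRATA and at 222, 86.5 and 161 CPM after sham. In both genes sham replicate 2 was the lowest of the sham samples, as it was for Spry2, but here it stayed above every PRATA sample. The log2 fold changes were -1.43 for Dusp7 (edgeR adjusted p = 0.156, DESeq2 adjusted p = 0.00151) and -1.01 for Dusp10 (edgeR adjusted p = 0.185, DESeq2 adjusted p = 0.0352). Dusp9 was also lower, but its PRATA values of 0.258, 0.319 and 0.474 CPM lay near the floor of 3 counts. Dusp8, named after its value was seen, was the 1 higher gene (log2 fold change 0.59, edgeR adjusted p = 0.187).
Of 8 other brakes on receptors and RAS, 1 had an unadjusted p under 0.05. Errfi1, which encodes an inhibitor of the EGF receptor, was at 33.3 ± 7.02 CPM after PRATA and 49.6 ± 9.61 CPM after sham (SD, n = 3), which gave -0.58 on the log2 scale (edgeR adjusted p = 0.234). Spry3, a Sprouty gene outside the chosen set, had a log2 fold change of 0.38 and Rasa1, a RAS inactivator, of -0.093, and neither passed.
The list of 20 other genes that ERK can induce held 3 higher and 2 lower genes at an unadjusted p under 0.05, with a median log2 fold change of 0.060. This median depended on single samples, since it was 0.38 without sham replicate 1, 0.35 without PRATA replicate 3, 0.53 without both of these, -0.085 without PRATA replicate 2, -0.16 without sham replicate 2 and 0.0026 without sham replicate 3. Fos was at 379, 474 and 297 CPM in PRATA replicates 1, 2 and 3 and at 217, 96.3 and 77.5 CPM in sham replicates 1, 2 and 3, so that the groups did not overlap (log2 fold change 1.56, edgeR adjusted p = 0.167, DESeq2 adjusted p = 0.00344). Like Dusp1, it had its lowest level in sham replicate 3. Fosl1, another AP-1 subunit, was at 195, 192 and 140 CPM after PRATA and at 522, 220 and 384 CPM after sham, with the order of the sham samples seen for Spry2 (log2 fold change -1.10, edgeR adjusted p = 0.175, DESeq2 adjusted p = 0.0172). Etv5, an ETS factor gene, was at 72.8 ± 13.2 CPM after PRATA and 49.5 ± 2.96 CPM after sham (SD, n = 3), which gave 0.55 on the log2 scale (edgeR adjusted p = 0.198). Fosb and Myc, named after their values were seen, completed the 5. Fosb was at 178 to 601 CPM after PRATA and 32.4 to 209 CPM after sham, so that its groups overlapped, and Myc had a log2 fold change of -0.80.

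**Figure D4:**
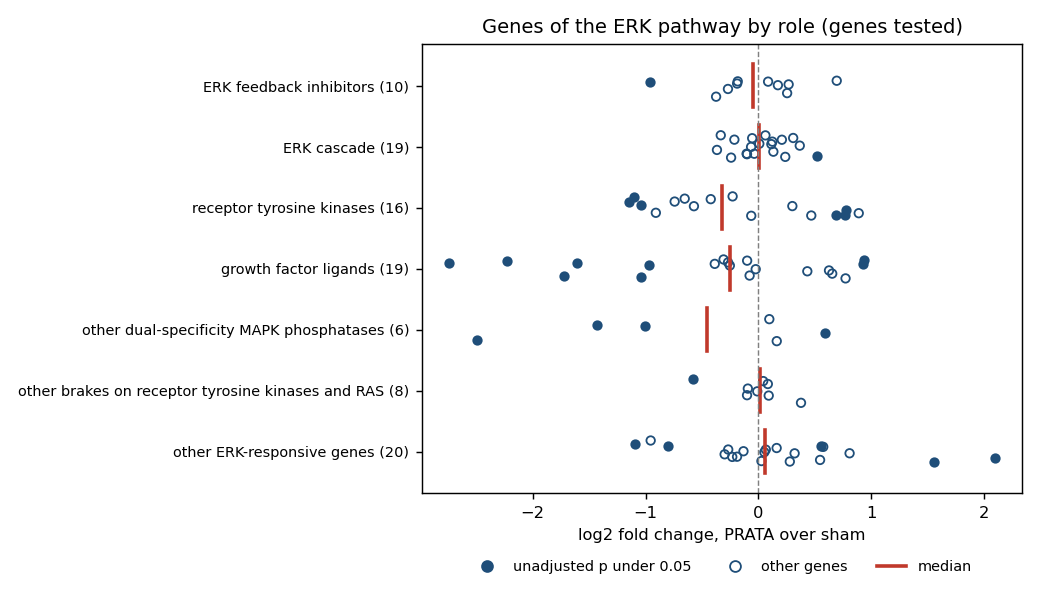
Log2 fold change, PRATA over sham (x axis), of every gene tested in the family and in the 6 other lists (rows, number of genes in brackets), with filled points for an unadjusted edgeR p under 0.05 and a red line at each median. The medians of the cascade and the feedback inhibitors lie close to 0, at 0.0085 and -0.048. Their genes run from -0.37 to 0.52 and from -0.96 to 0.69. Ligands and receptors reach further to both sides and the other phosphatases further on the lower side.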

How the data were processed

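RNA of isolated DRG neurons was sequenced in 3 PRATA and 3 sham samples from stranded total RNA libraries. The deposited table holds raw counts per gene, made by the authors without normalization. The study's methods describe HISAT2, StringTie and FPKM values from Cuffdiff, while the submitters' processing notes name STAR 2.7.3a, RSEM and DESeq2, and which of these made the table, the genome build, the annotation and the strand setting are not given in the sources used here.

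The model was fitted with edgeR 4.0.16 under R 4.3.3. Genes were kept by filterByExpr (minimum count 10, minimum total 15), scaled by TMM and compared by the quasi-likelihood test, two-sided, without a covariate, and p-values were adjusted by Benjamini-Hochberg across every gene that was tested. This count test replaces the FPKM comparison of the study. Intervals are 95% and use the total degrees of freedom of that fit. An exact permutation test of 3 samples against 3 cannot give a p under 0.10 and was not used. Alternatives used DESeq2 1.42.0 and limma 3.58.1 (limma-trend with a pseudocount of 1, and voom), other scalings and filters, the replicate number as a block, each sample left out, and the 4 samples without PRATA replicate 3 and sham replicate 1. The fits were tested on simulated data.

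The members, lists and alternatives were chosen with earlier results of these data known. All members are described, and of each pathway list the 3 genes with the smallest p (1 receptor gene is not reported here), and the 5 genes nearest to the mean of the members among those with at least 5 CPM. Of the list genes, 3 ligand genes (Ntf3, Artn and Nrtn) did not pass the filter. Figures were drawn with matplotlib 3.10.9. Promoter windows are from RefSeq. Same-numbered samples were not taken as pairs, because the labels do not say that they belong together.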

Additional observations from a re-analysis of the deposited data

How the results depend on the processing

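The median log2 fold change of the 10 members lay between -0.069 and 0.082 over 16 alternatives. Of the members, 8 kept their direction in all 16. Spry1 turned to 0.099 with voom quality weights and 0.015 in the 4 samples, and Dusp5 to 0.22 in the 4 samples, with a range of -0.44 to 0.062 when a sample was left out, the highest without sham replicate 1. At an unadjusted p under 0.05, voom called 2 members, where 30.9% of all genes were called. Leaving out a sample gave 0 members without PRATA replicate 3 or sham replicate 3, where 13.1% and 9.33% of all genes were called. It gave 2 members without PRATA replicate 2 or sham replicate 2, where 15.4% and 27.6% of all genes were called. With the log2 fold change over 1 as well, voom and the 4 samples each called 1 member. Over all genes tested, these settings called 1002 of 14919 and 994 of 14808. Leaving out a sample gave 0 to 1 members and called 485 to 1034 of all genes. The 1 member was Spry2 without PRATA replicate 1, PRATA replicate 2 or sham replicate 2, and Dusp1 without sham replicate 1. At an adjusted p under 0.05, leaving out a sample gave 0 to 1 members. The 1 was Spry2 without sham replicate 2, where 721 of all 15438 genes tested were called. DESeq2 and voom gave Spry2 adjusted p-values of 0.0529 and 0.0511. The cause of these shifts was not tested.

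Without the filter on low counts the median log2 fold change of all genes was -0.17. Over all genes, an adjusted p under 0.05 was reached by 728 genes with DESeq2, 1173 with voom, 13 in the 4 samples and 0 to 721 with a sample left out, the highest without sham replicate 2. An unadjusted p under 0.05 was reached by 4606 genes with voom and 1406 to 4254 with a sample left out, and with the fold change over 1 by 1379 without a filter, 337 with limma-trend, 1002 with voom, 994 in the 4 samples and 485 to 1034 with a sample left out. List medians moved to -0.082 for the ligands with voom, to -0.017 for the receptors and -0.94 for the other phosphatases in the 4 samples. With a sample left out they ran from -0.078 to 0.058 for the cascade, -0.52 to -0.18 for the receptors, -0.20 to -0.10 for the ligands, -1.29 to -0.18 for the other phosphatases, -0.079 to 0.11 for the other brakes and -0.16 to 0.38 for the other ERK-responsive genes.

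A block for the replicate number left 1528 genes with an unadjusted p under 0.05, against 2734 without the block, and a log2 fold change of -0.87 for Spry2 (edgeR adjusted p = 0.470). The block changed no call of a member. Samples that share a number did not deviate together: across genes (not independent of each other), the correlation of their residuals was -0.35, -0.037 and -0.35 for numbers 1, 2 and 3. Depth limits Spred3 most among the members, and sham replicate 2, with 39 counts of it, most among the samples.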
